A study of Mus musculus with 8 samples.

Results

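Microglia, the resident macrophages of the brain, keep a characteristic set of transcripts while the tissue is healthy. The set holds receptors for nucleotides released by other cells, the receptor for fractalkine, the receptor through which growth factors keep the cells alive, and a transcription factor that holds the program in place. Microglia reacting to injury are known to lower many of these transcripts, and macrophages that enter from the blood carry few of them. The genes described here are 9 of this set, chosen by name: P2ry12, P2ry13, Gpr34, Cx3cr1, Csf1r, Fcrls, Tmem119, Olfml3 and Sall1. All 9 were found among the 46078 gene identifiers of the count tables, and all 9 passed the filter on low counts that left 14736 genes for testing.

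The genes were measured by bulk RNA-Seq in infarcts of 8 wild type male C57BL/6J mice aged 18 months, each of which had undergone DH stroke, blockage of the distal middle cerebral artery followed by hypoxia. Vehicle mice (n = 4) were injected subcutaneously with sterile PBS, and HPβCD mice (n = 4) with 2-hydroxypropyl-β-cyclodextrin at 4 g/kg, a ring-shaped sugar that binds lipids. Injections were given 3 times per week for 6 weeks from 1 week after stroke, and infarcts were taken at 7 weeks. The infarcts were located by eye and cut out, so the amount of adjoining tissue in a piece was not fixed, and no uninjured tissue or sorted microglia were analysed here.

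Libraries held 16.6 M to 32.9 M gene counts. Vehicle 2 was the deepest and the next held 19.4 M. The members had between 238 counts (P2ry12 in HPβCD 1) and 16922 counts (Csf1r in vehicle 2) in a library, so counting error was small beside the spread between animals. Levels are given as CPM, counts scaled to a common library total with the TMM factor of each library, with mean ± SD over 4 animals. The libraries did not hold the same tissue: the summed level of 12 neuron genes was 1612 CPM in vehicle 1 and 9402 CPM in vehicle 3, and 57.4 to 263 CPM in the other 6 libraries. Results are therefore also given without vehicle 1 and 3 where that changed a call or an overlap. These libraries were picked by neuron genes alone, and leaving them out did not match the groups in other brain cells. The median log2 fold change, HPβCD minus vehicle, was then -1.84 for 12 oligodendrocyte genes and -0.855 for 12 astrocyte genes.

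None of the 9 members passed the test between HPβCD and vehicle infarcts (edgeR quasi-likelihood test, Benjamini-Hochberg adjusted p under 0.05 over all genes tested), where 1.95% of all genes did (1.17% higher and 0.774% lower). At an unadjusted p under 0.05, 5 of the 9 members passed, 4 lower and 1 higher, beside 27.8% of all genes (16.0% lower and 11.8% higher). DESeq2 called 3 members, P2ry12 and Cx3cr1 lower and Olfml3 higher, beside 17.4% of the same genes (10.6% lower and 6.87% higher), and limma-voom called 0. In CPM, the 4 HPβCD libraries lay all below the vehicle libraries for P2ry12 and all above them for Olfml3. The other 7 members overlapped, and over all genes 16.8% did not overlap (8.01% lower and 8.77% higher). Without vehicle 1 and 3, 4 members did not overlap, with Cx3cr1 and Gpr34 added on the lower side, beside 32.9% of all genes. In that fit edgeR called 0 members and 1.34% of all genes. At an unadjusted p under 0.05 it had 5 members, beside 21.5% of all genes. These were P2ry12, Cx3cr1 and Gpr34 lower, and Olfml3 and Tmem119 higher. Sall1 passed at this level only with all libraries, and Tmem119 only without vehicle 1 and 3. The median log2 fold change of the 9 members was -0.23, with 6 lower and 3 higher in value. Over all genes tested the median was -0.05 and 54.1% were lower in value. The largest differences in value thus went both ways. In bulk tissue, fewer cells of a type and less RNA per cell cannot be told apart.

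**Figure D1:**
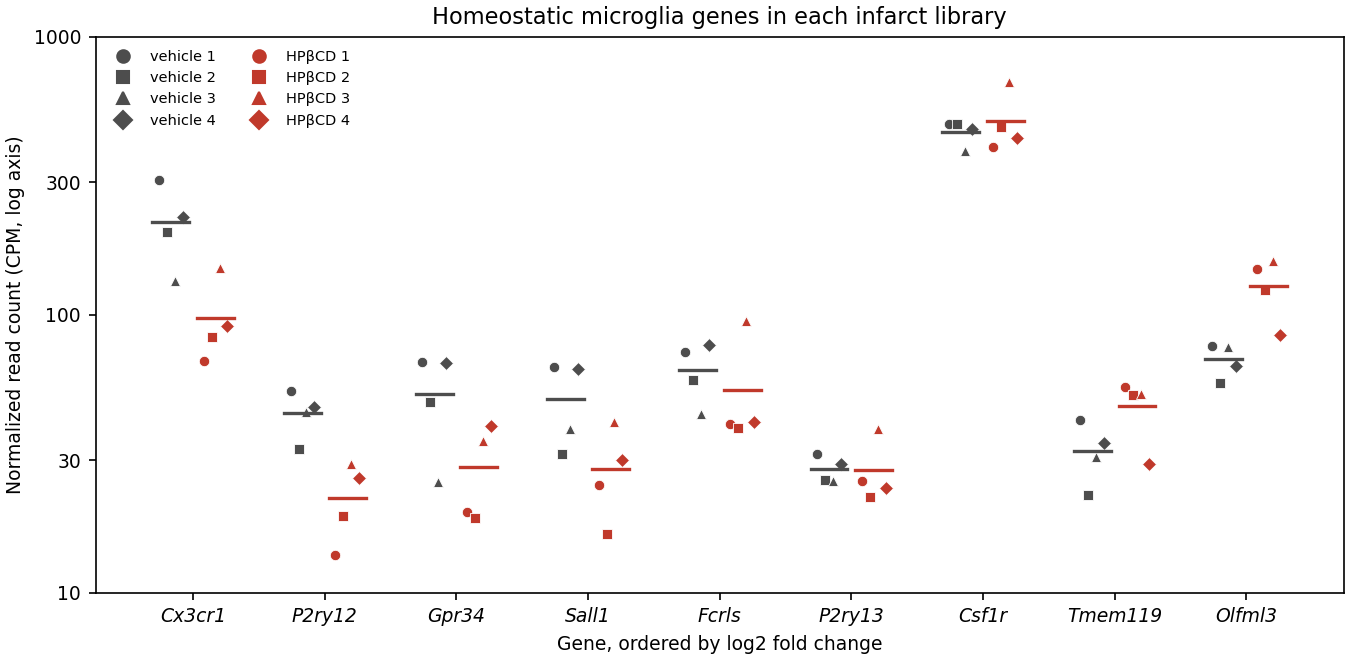
Normalized read count (CPM, log axis) of each homeostatic microglia gene in each library, with bars at the group means of 4 vehicle (grey) and 4 HPβCD (red) infarcts and marker shapes for animal numbers. P2ry12 is lower in all 4 HPβCD libraries (13.6 to 29.0 CPM) than in the vehicle libraries (33.02 to 53.3 CPM) and Olfml3 is higher (84.4 to 156 against 57.0 to 77.4 CPM), while the other genes overlap.

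The purinergic receptors came first. P2ry12 encodes the ADP receptor that steers microglial processes toward sites of damage, and P2ry13 encodes a related ADP receptor. Both genes lie on the minus strand of chromosome 3 in GRCm38, P2ry12 at 59216272 to 59262871 and P2ry13 at 59207892 to 59210882, with 5389 bases between them. Both lie within Med12l on the opposite strand, with 9 exonic bases of P2ry12 and 0 of P2ry13 shared with exons of Med12l. The 250 bases before their RefSeq start sites (GRCm38.p6), 5′ to 3′ in the direction of the gene, are printed because these neighbours differed in how their levels compared between the groups, and those of Cx3cr1 and Olfml3 because their levels differed in opposite directions. Capitals mark AGGAAG or its reverse complement CTTCCT, letters common in sites bound by PU.1, the factor that macrophages and microglia depend on. Shorter or altered forms of such a site were not marked or counted.
P2ry12, chr3:59262986-59263235, minus strand: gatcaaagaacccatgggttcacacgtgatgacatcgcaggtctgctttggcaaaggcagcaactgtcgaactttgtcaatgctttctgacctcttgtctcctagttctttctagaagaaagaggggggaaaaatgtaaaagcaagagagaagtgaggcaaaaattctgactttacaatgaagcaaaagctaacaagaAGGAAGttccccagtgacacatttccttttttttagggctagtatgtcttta
P2ry13, chr3:59210883-59211132, minus strand: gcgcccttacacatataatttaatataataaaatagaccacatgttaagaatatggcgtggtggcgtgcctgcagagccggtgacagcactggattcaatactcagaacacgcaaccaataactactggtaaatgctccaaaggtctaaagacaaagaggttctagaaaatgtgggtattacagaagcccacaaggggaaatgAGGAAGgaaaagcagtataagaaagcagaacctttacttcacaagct
Cx3cr1, chr9:120068297-120068546, minus strand: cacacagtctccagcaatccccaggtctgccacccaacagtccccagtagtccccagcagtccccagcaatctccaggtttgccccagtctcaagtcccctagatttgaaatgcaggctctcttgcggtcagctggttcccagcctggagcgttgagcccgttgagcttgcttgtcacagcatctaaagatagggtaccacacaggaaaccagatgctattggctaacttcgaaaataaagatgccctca
Olfml3, chr3:103738002-103738251, minus strand: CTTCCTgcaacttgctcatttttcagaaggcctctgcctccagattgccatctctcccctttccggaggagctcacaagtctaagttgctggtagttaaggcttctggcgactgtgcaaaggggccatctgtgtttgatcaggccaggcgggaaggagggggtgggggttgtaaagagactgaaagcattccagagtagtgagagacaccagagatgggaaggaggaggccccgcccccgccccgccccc
AGGAAG was found on either strand in 29.5% of 32851 RefSeq windows of 250 bases. It occurred once each before P2ry12 and P2ry13, with its first base 52 and 47 bases before the start, and once, at the far end of the window, before Olfml3. The Cx3cr1 window held 0 copies of AGGAAG, which does not exclude other forms of a PU.1 site. CAGAC, the letters bound by SMAD proteins downstream of TGF-β, was found on either strand in 42.2% of all windows, once each before P2ry12 and Cx3cr1 and 0 times before P2ry13 and Olfml3. No base of these windows belonged to both motifs. The 6 members with an entry had 8 windows, 3 of them of Sall1. Of the 8, 5 held AGGAAG and 4 held CAGAC, each in 1 of the Sall1 windows. These matches describe letters in a window and were not related to the levels.

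P2ry12 measured 53.3, 33.02, 44.6 and 46.5 CPM in vehicle 1 to 4, and 13.6, 18.9, 29.0 and 25.9 CPM in HPβCD 1 to 4. The highest HPβCD library thus lay below the lowest vehicle library, and the HPβCD mean of 21.9 ± 6.93 CPM was 49.3% of the vehicle mean of 44.4 ± 8.45 CPM (SD, n = 4). The log2 fold change was -1.02 ± 0.26 (SE), which did not pass the edgeR test (adjusted p = 0.0658) and passed in DESeq2 (adjusted p = 0.00712). Without vehicle 1 and 3 it was -0.85 (edgeR adjusted p = 0.151).

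P2ry13 measured 31.6, 25.5, 25.2 and 29.0 CPM in the vehicle libraries, and 25.3, 22.2, 38.9 and 23.8 CPM in the HPβCD libraries. Its groups overlapped, with the highest value in HPβCD 3 and the lowest in HPβCD 2. Mean levels were 27.8 ± 3.05 and 27.6 ± 7.69 CPM, a log2 fold change of -0.01 ± 0.20 (edgeR adjusted p = 0.973). The ratio of P2ry12 to P2ry13 within a library ran from 1.29 to 1.77 in the vehicle group and from 0.540 to 1.09 in the HPβCD group. Within each library this ratio does not depend on scaling between libraries, and its groups did not overlap. The pair was chosen after its values were seen, so the ratio is a description with no test.

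Gpr34, a receptor for lysophosphatidylserine, lies on the plus strand of the X chromosome at 13632089 to 13640858, within Cask on the opposite strand and sharing 0 exonic bases with it. It measured 67.6, 48.6, 25.1 and 66.9 CPM in the vehicle libraries, and 19.6, 18.5, 35.1 and 39.8 CPM in the HPβCD libraries. The overlap came from 1 library, vehicle 3, which lay below HPβCD 3 and 4. Leaving vehicle 3 out removed the overlap for Gpr34 and for Cx3cr1, where 24.6% of all genes did not overlap. The log2 fold change was -0.88 ± 0.37 (edgeR adjusted p = 0.163), and it was -1.01 without vehicle 1 and 3 (adjusted p = 0.145), where the groups no longer overlapped.

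Cx3cr1, the receptor for the neuronal chemokine fractalkine, lies on the minus strand of chromosome 9 at 119901616 to 120069879. It measured 307, 198, 133 and 225 CPM in the vehicle libraries, and 68.1, 83.5, 147 and 91.5 CPM in the HPβCD libraries. A single pair of libraries crossed: HPβCD 3 lay above vehicle 3. The HPβCD mean of 97.6 ± 34.5 CPM was 45.3% of the vehicle mean of 216 ± 72.0 CPM, the largest difference in log2 value among the members (-1.14 ± 0.31). It did not pass with edgeR (adjusted p = 0.0724) and passed with DESeq2 (adjusted p = 0.0090). Without vehicle 3 alone it passed with edgeR (log2 fold change -1.31, adjusted p = 0.0380), where 4.22% of genes were called. Without vehicle 1 and 3 the groups did not overlap and the log2 fold change was -1.10 (edgeR adjusted p = 0.0876). The study had named Cx3cr1 from these samples, so its direction is not independent evidence.

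Csf1r, the receptor for CSF1 and IL-34 on which microglia and most macrophages depend, lies on the plus strand of chromosome 18 at 61100598 to 61132149. It was the most abundant member, at 484, 485, 387 and 467 CPM in the vehicle libraries and 402, 475, 686 and 431 CPM in the HPβCD libraries. The groups overlapped, with HPβCD 3 the highest library and vehicle 3 the lowest. The log2 fold change was 0.13 ± 0.20 (edgeR adjusted p = 0.717), and without HPβCD 3 it was -0.06. Exons of Hmgxb3 on the opposite strand cover 15.1% of the Csf1r exons, and the strand setting of the counting was not given in the sources used here.

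Fcrls, an Fc receptor-like protein of mouse microglia, lies on the minus strand of chromosome 3 at 87250758 to 87263738. It measured 73.3, 58.2, 44.1 and 77.5 CPM in the vehicle libraries, and 40.5, 39.2, 94.7 and 41.1 CPM in the HPβCD libraries. HPβCD 1, 2 and 4 lay below every vehicle library and HPβCD 3 lay above every one. The log2 fold change was -0.23 ± 0.32 (edgeR adjusted p = 0.688), and without HPβCD 3 it was -0.65 (adjusted p = 0.135). Leaving HPβCD 3 out also removed the overlap for Fcrls, Cx3cr1 and Sall1, where 23.8% of all genes did not overlap.

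Tmem119, a membrane protein used to tell microglia from other macrophages, lies on the minus strand of chromosome 5 at 113793729 to 113800516. It measured 41.8, 22.5, 30.7 and 34.7 CPM in the vehicle libraries, and 55.2, 51.5, 51.9 and 29.0 CPM in the HPβCD libraries. HPβCD 1, 2 and 3 lay above every vehicle library, and HPβCD 4 lay within the vehicle range. Without HPβCD 4 the groups did not overlap, like 26.7% of all genes. The mean levels were 32.4 ± 8.08 and 46.9 ± 12.1 CPM, a log2 fold change of 0.53 ± 0.25 (edgeR adjusted p = 0.207). Without vehicle 1 and 3 it was 0.73 (adjusted p = 0.193).

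Olfml3, a secreted glycoprotein of the olfactomedin family, lies on the minus strand of chromosome 3 at 103722222 to 103738001. It measured 77.4, 57.0, 76.6 and 65.4 CPM in the vehicle libraries, and 146, 123, 156 and 84.4 CPM in the HPβCD libraries. All HPβCD libraries were higher, HPβCD 4 by the least, and the means were 69.1 ± 9.77 and 127 ± 31.7 CPM. The log2 fold change of 0.88 ± 0.21 did not pass with edgeR (adjusted p = 0.0621) and passed with DESeq2 (adjusted p = 0.00285). With edgeR it passed when HPβCD 4 was left out (1.04, adjusted p = 0.0348), where 2.35% of genes were called. It also passed without vehicle 3 (0.94, adjusted p = 0.0495).

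Sall1, the transcription factor that keeps microglia in their resting state, lies on the minus strand of chromosome 8 at 89027235 to 89044162. It measured 64.7, 31.5, 38.9 and 63.8 CPM in the vehicle libraries, and 24.5, 16.3, 41.2 and 29.97 CPM in the HPβCD libraries. HPβCD 3 lay above vehicle 2 and 3, and the other HPβCD libraries lay below all vehicle libraries. The log2 fold change was -0.83 ± 0.33 (edgeR adjusted p = 0.146), and it was -0.75 without vehicle 1 and 3 (adjusted p = 0.313).

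**Figure D2:**
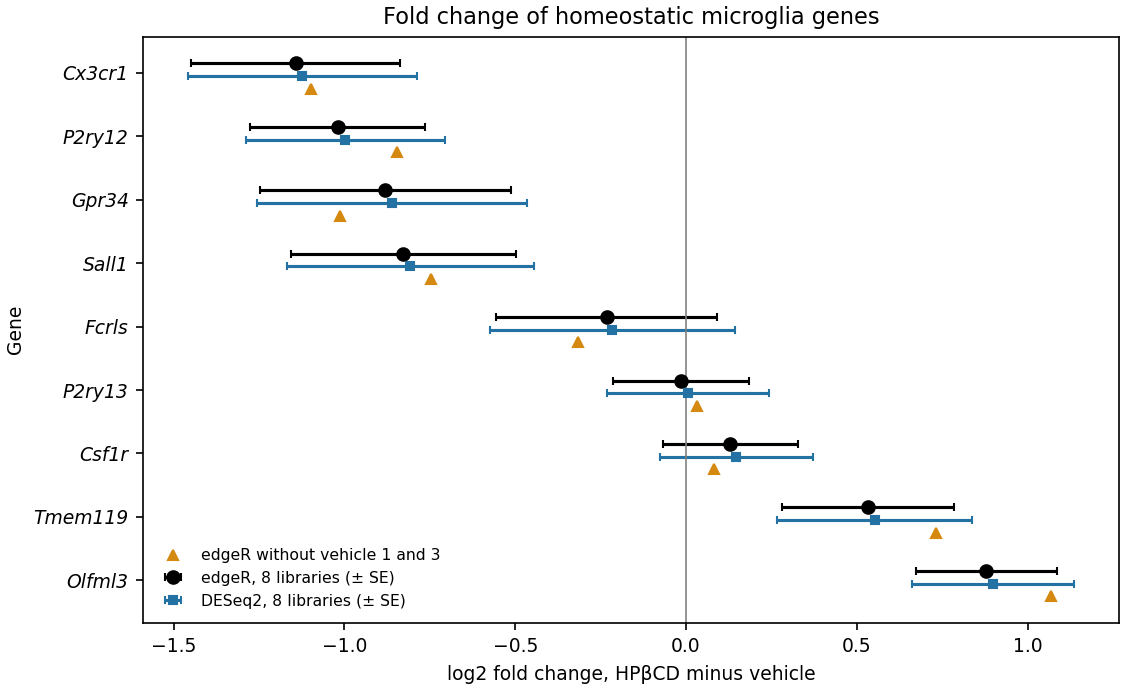
Log2 fold change, HPβCD minus vehicle, of each member by edgeR (black) and DESeq2 (blue) on 8 libraries with bars of 1 SE, and by edgeR without vehicle 1 and 3 (orange). Estimates run from -1.14 for Cx3cr1 to 0.88 for Olfml3, and leaving out the vehicle libraries with the most neuron transcripts changes the sign only of P2ry13, from -0.01 to 0.03.

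Per kilobase of merged exon, the scale on which genes can be compared in level, Csf1r led in the vehicle group at 78.9 ± 8.03 CPM per kb. Cx3cr1 followed at 47.8 ± 16.0, then Fcrls at 27.1, Gpr34 at 24.9, P2ry12 at 17.4, Tmem119 at 14.005, Olfml3 at 11.2, P2ry13 at 11.01 and Sall1 at 9.44 CPM per kb. Each gene overlapped its neighbour in this order over the 4 animals. In the HPβCD group Csf1r led at 86.3 ± 22.3 CPM per kb and did not overlap the next gene. Fcrls (23.1), Cx3cr1 (21.7), Olfml3 (20.6) and Tmem119 (20.3 CPM per kb) followed close together, then Gpr34 at 13.5, P2ry13 at 10.9, P2ry12 at 8.59 and Sall1 at 5.32 CPM per kb. Cx3cr1 stood second in vehicle infarcts and was level with Olfml3 and Tmem119 in HPβCD infarcts. The merged exons of Olfml3 span 6161 bases, which lowers its value per kilobase if shorter transcripts prevail.

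The 9 members summed to 1200, 959, 805 and 1075 CPM in the vehicle libraries and to 794, 847, 1280 and 796 CPM in the HPβCD libraries. The sums overlapped, and HPβCD 3 held the highest. Csf1r alone made up 40.3% to 56.0% of the sum. Cx3cr1 made up 16.5% to 25.5% of it in vehicle libraries and 8.57% to 11.5% in HPβCD libraries, ranges that did not overlap.

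The members were also set against 12 genes that most myeloid cells use, of which Ctss, Lcp1 and Cd53 were the most abundant. The mean log2 level of these genes lay 0.35 below to 0.22 above the vehicle mean in vehicle libraries, and 0.03 to 0.76 above it in HPβCD libraries, highest in HPβCD 3. None of the 12 passed the edgeR test. At an unadjusted p under 0.05, 5 were higher and none lower, beside 11.8% of all genes higher. DESeq2 called 4 higher and none lower, beside 6.87% higher. In value, 8 of the 12 were higher and 4 lower, and their median log2 fold change was 0.40 (0.25 without vehicle 1 and 3). The 3 most abundant were among the 8 higher in value, at 0.95 for Ctss, 0.42 for Lcp1 and 0.52 for Cd53.

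Relative to these genes, 2 members were lower in every HPβCD library than in any vehicle library, P2ry12 and Cx3cr1, beside 11.6% of all genes. Cx3cr1 stood at log2 ratios of 0.90, 0.07, 0.07 and 0.36 in the vehicle libraries and -1.47, -1.17, -0.90 and -0.86 in the HPβCD libraries. All HPβCD values thus lay below all vehicle values, with a difference in group means of -1.45. P2ry12 stood at -1.62, -2.51, -1.502 and -1.91 against -3.78, -3.30, -3.24 and -2.67, a difference of -1.36. Sall1 (-1.14) and Gpr34 (-1.16) were lower by similar amounts in the mean but overlapped, and Fcrls (-0.62), P2ry13 (-0.35) and Csf1r (-0.20) overlapped too. Without vehicle 1 and 3, Gpr34 no longer overlapped, and 3 members were lower in every HPβCD library, beside 15.1% of all genes. Tmem119 (0.22) and Olfml3 (0.55) were higher in value and overlapped, so 0 members were higher in every HPβCD library, beside 1.66% of all genes.

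Set against Csf1r alone, the same 2 of the other 8 members were lower in every HPβCD library, beside 8.12% of all genes. The CPM ratio of Cx3cr1 to Csf1r was 0.634, 0.409, 0.343 and 0.482 in vehicle libraries and 0.169, 0.176, 0.215 and 0.212 in HPβCD libraries. The spread within each group was smaller than the gap between the group means (log2 difference -1.24, SD 0.38 and 0.18). A 6-gene reference of Tyrobp, Cd68, C1qa, C1qb, C1qc and Ctss put 6 members lower in every HPβCD library, beside 36.3% of all genes. The mean level of this reference was itself higher in HPβCD than in vehicle libraries, by more than that of the 12 genes. A change of reference shifts every gene in a library by the same amount. The difference in group means went from -0.35 to -0.87 for P2ry13 and from -0.20 to -0.72 for Csf1r. Leaving out vehicle 2 also put 6 members lower relative to the 12 genes, beside 19.2%, and leaving out HPβCD 4 put 5 lower, beside 27.6%.

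**Figure D3:**
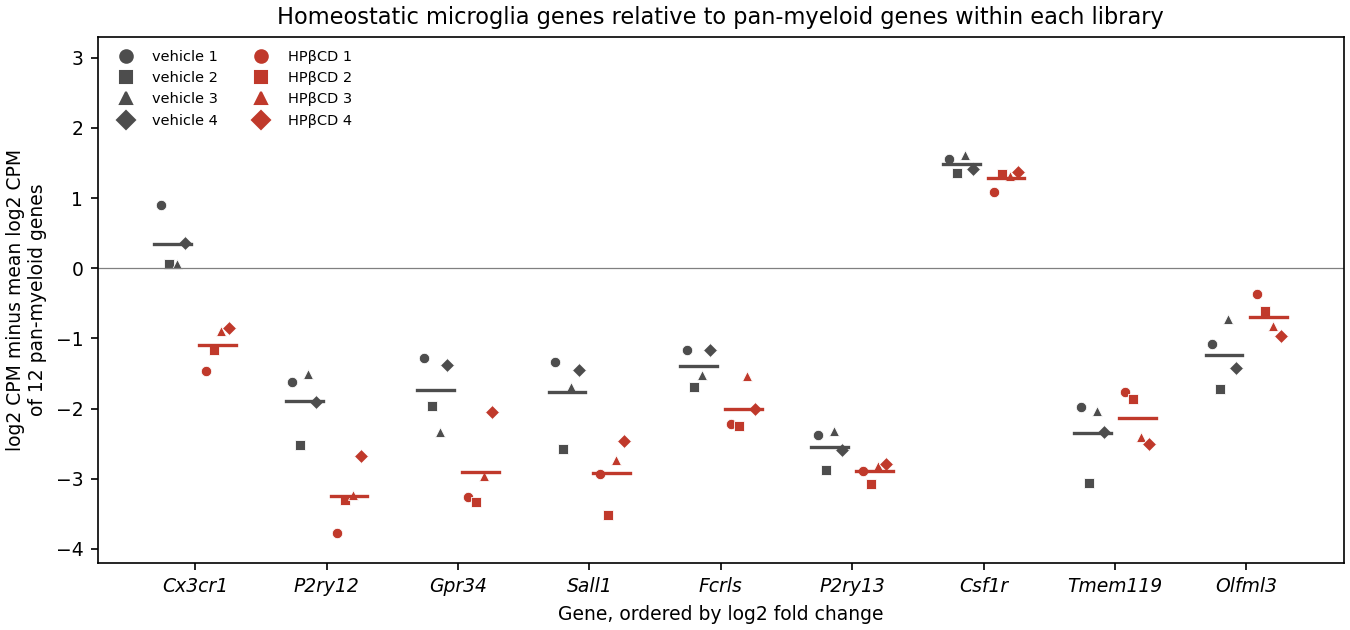
Log2 CPM of each member minus the mean log2 CPM of 12 pan-myeloid genes in the same library, for 4 vehicle (grey) and 4 HPβCD (red) infarcts with bars at group means. Cx3cr1 lies at 0.07 to 0.90 in vehicle and -1.47 to -0.86 in HPβCD libraries, P2ry12 also separates, and Csf1r, P2ry13, Tmem119 and Olfml3 overlap.

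P2ry12 and Tmem119, the pair most used to mark microglia, went in opposite directions in value. Their CPM ratio was 1.27, 1.47, 1.45 and 1.34 in vehicle libraries and 0.247, 0.367, 0.559 and 0.895 in HPβCD libraries. All vehicle ratios thus lay above all HPβCD ratios. The ratio of P2ry12 to Olfml3 ran from 0.579 to 0.712 in the vehicle group and from 0.0937 to 0.307 in the HPβCD group. These pairs, and that of Cx3cr1 and Csf1r, were picked after their values had been seen.

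Across the 8 libraries, the log2 levels of P2ry12 and Cx3cr1 correlated at r = 0.89, Cx3cr1 and Gpr34 at 0.88, Fcrls and P2ry13 at 0.92, and Tmem119 and Olfml3 at 0.88. P2ry12 and Olfml3 correlated at -0.70. With group means removed, P2ry12 and Cx3cr1 stood at 0.67, Fcrls and P2ry13 at 0.95, Tmem119 and Olfml3 at 0.87, and P2ry12 and Olfml3 at 0.00. Each value describes 8 libraries that share their scaling and their tissue makeup. Fcrls also correlated with Csf1r at 0.77, with Cx3cr1 at 0.76 and with Sall1 at 0.76, and the pair with the highest value, Fcrls and P2ry13, was not the pair with the largest fold changes.

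Oligodendrocyte and astrocyte levels correlated positively with P2ry12, Cx3cr1, Sall1 and Gpr34 over the 8 libraries, though not every library followed. Vehicle 3 had the highest summed astrocyte level, 10610 CPM, and the lowest vehicle levels of Cx3cr1 (133 CPM) and Gpr34 (25.1 CPM). For 12 oligodendrocyte genes, 11 were lower in value in HPβCD infarcts (median log2 fold change -2.06, or -1.84 without vehicle 1 and 3). Of these 12, 0 passed the edgeR test, with 2 at an unadjusted p under 0.05 and 3 called by DESeq2. Their summed level was 1764 to 5638 CPM in vehicle and 404 to 2361 CPM in HPβCD libraries, and none was at 0. For 12 astrocyte genes, 11 were lower in value (median -1.25, or -0.855 without vehicle 1 and 3). Summed astrocyte levels were 3070 to 10610 CPM in vehicle and 1218 to 3130 CPM in HPβCD libraries. Of the 12 astrocyte genes, 1 passed, Fgfr3 (log2 fold change -2.50, edgeR adjusted p = 0.0499). Of these genes, 9 were lower at an unadjusted p under 0.05, DESeq2 called 7 lower, and 3 did not overlap, beside 16.0%, 10.6% and 8.01% of all genes. P2ry12 correlated with the mean oligodendrocyte level at 0.92 and with the astrocyte level at 0.98 over the 8 libraries. For Cx3cr1 the values were 0.92 and 0.85, for Sall1 0.89 and 0.85, and for Gpr34 0.89 and 0.69. Tmem119 (-0.51 and -0.44) and Olfml3 (-0.64 and -0.63) had negative values. Group means were not removed here or in the list correlations below, so these values include the difference between the groups. The part of these other cells in the levels of the members was not tested.

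**Figure D4:**
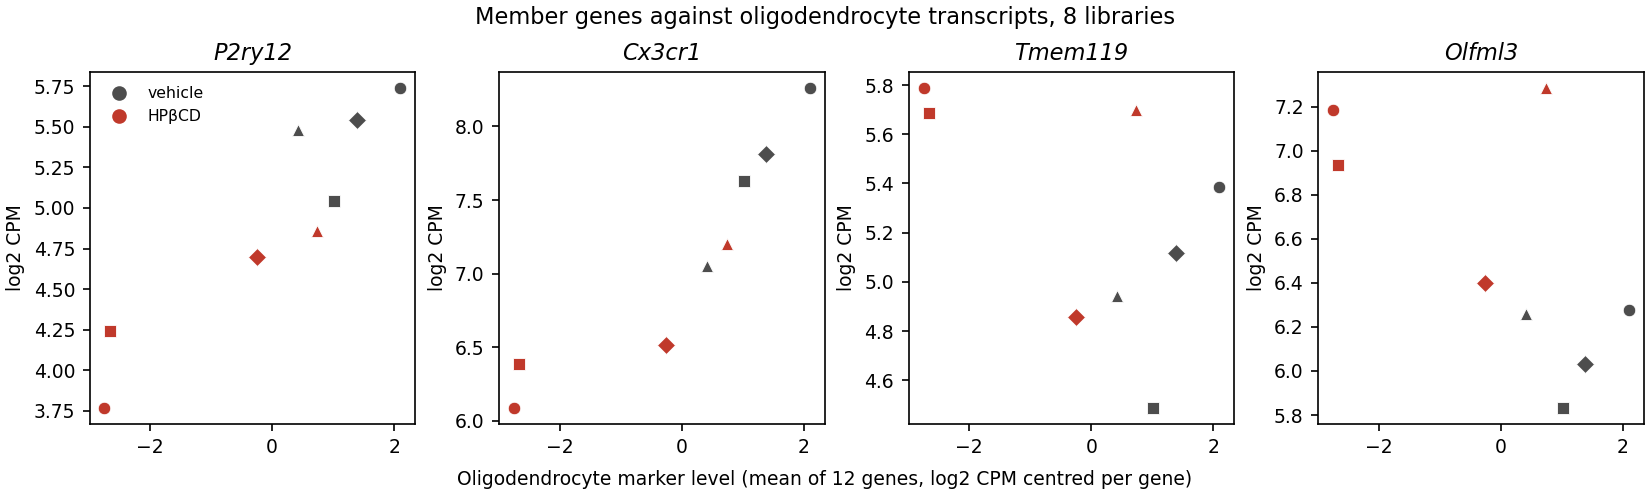
Log2 CPM of P2ry12, Cx3cr1, Tmem119 and Olfml3 in each of 8 libraries against the mean centred log2 level of 12 oligodendrocyte genes, vehicle grey and HPβCD red. P2ry12 and Cx3cr1 are highest where oligodendrocyte transcripts are highest (r = 0.92 for both, 8 libraries), and Tmem119 and Olfml3 are not (r = -0.51 and -0.64). Group means were not removed, so these values include the difference between the groups.

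Neurons, oligodendrocyte precursors and fibroblasts were examined in the same way. For the oligodendrocyte genes and the lists below, 27.8% of all genes passed at an unadjusted p under 0.05 (16.0% lower and 11.8% higher). DESeq2 called 17.4% (10.6% lower and 6.87% higher), and 16.8% did not overlap (8.01% lower and 8.77% higher). For 10 tested neuron genes the median log2 fold change was -5.85 with all libraries and 0.05 without vehicle 1 and 3, and Gad2 was at 0 in HPβCD 1. edgeR called 0 of them, with 9 lower at an unadjusted p under 0.05 and 8 called lower by DESeq2. P2ry12 correlated with the neuron level at 0.70, Sall1 at 0.51, Cx3cr1 at 0.48 and Gpr34 at 0.19. Oligodendrocyte precursor genes (12 tested, 10 lower in value) had 1 called gene, Tnr (-2.51, edgeR adjusted p = 0.0499), their median was -1.77 (-1.16 without vehicle 1 and 3), and Neu4 was at 0 in HPβCD 1. At an unadjusted p under 0.05, 7 of them were lower and 1 higher, DESeq2 called 6 lower and 1 higher, and 4 lower and 1 higher did not overlap. P2ry12 and Cx3cr1 correlated with their mean level at 0.96 and 0.97. Fibroblast genes were mostly higher: 10 of 11 tested were higher in value (median 1.04), and Col1a1 (1.61, adjusted p = 0.0483) and Col1a2 (1.46, adjusted p = 0.0462) passed with edgeR. There were 8 higher and 1 lower at an unadjusted p under 0.05, and DESeq2 called 7 higher and 1 lower. Their summed level was 2995 to 7274 CPM in vehicle and 10310 to 11810 CPM in HPβCD libraries, ranges that did not overlap. Olfml3 correlated with the fibroblast level at 0.63 and Tmem119 at 0.49. With the endothelial level the values were higher, 0.72 for Olfml3 and 0.65 for Tmem119. With the level of genes that microglia raise in disease they were 0.66 and 0.47. Whether cells other than microglia contributed to the Olfml3 or Tmem119 counts was not tested.

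Of border macrophage genes, Stab1 passed (1.38, edgeR adjusted p = 0.0483) among 12 tested, with 3 higher and 3 lower at an unadjusted p under 0.05 and 2 higher and 1 lower by DESeq2. The median was 0.09, and -0.24 without vehicle 1 and 3. Monocyte and neutrophil genes (11 tested, median -0.25, or -0.55 without vehicle 1 and 3) and T lymphocyte genes (12 tested, median -0.07, or 0.25) had 0 called by edgeR, with 3 and 2 at an unadjusted p under 0.05 and 1 each by DESeq2. Endothelial genes (12 tested, median 0.44) also had 0 called, with 5 at an unadjusted p under 0.05 and 4 by DESeq2. Among 10 B lymphocyte genes, 4 were called, all lower: Blk, Cd79a, Cd79b and Fcer2a (log2 fold changes -1.82 to -2.38). At an unadjusted p under 0.05 and with DESeq2, 9 of the 10 were lower and 1 higher. Cx3cr1 correlated with the B lymphocyte level at 0.87 and P2ry12 at 0.69 over the 8 libraries.

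Other genes of the resting program gave a mixed picture. Of 24 further homeostatic microglia genes, 21 were tested, 12 higher and 9 lower in value with a median of 0.06 (0.03 without vehicle 1 and 3), and 2 passed with edgeR, in opposite directions. At an unadjusted p under 0.05, 3 were higher and 3 lower, and DESeq2 called 3 higher and 2 lower. Siglech, a sialic acid-binding lectin, measured 31.2, 12.1, 31.4 and 18.9 CPM in vehicle and 3.50, 2.57, 8.25 and 3.32 CPM in HPβCD libraries. Its groups did not overlap and it fell by 2.40 ± 0.45 on the log2 scale (adjusted p = 0.0483), more than any of the 9 members in value. Rnase4, a secreted ribonuclease whose locus also holds Ang, rose by 1.41 ± 0.27 (adjusted p = 0.0483), from 82.8 to 201 CPM in vehicle to 304 to 430 CPM in HPβCD libraries. The most abundant of the list did not pass: Cst3 (log2 fold change -0.02), Sparc (0.90) and Tgfbr1 (0.35). Calls near this threshold depended on single libraries: over all genes edgeR called 0 without vehicle 1, vehicle 4, HPβCD 2 or HPβCD 3, 4 without HPβCD 1, 629 without vehicle 3, and 538 without vehicle 2.

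The ligands of the members were tested next. Cx3cl1, which encodes fractalkine, measured 165, 93.5, 387 and 77.1 CPM in vehicle and 122, 122, 99.8 and 86.2 CPM in HPβCD libraries (log2 fold change -0.75 ± 0.49, edgeR adjusted p = 0.357). The highest value was in vehicle 3, the library with the most neuron transcripts. Csf1 stood at 0.07 ± 0.19 (adjusted p = 0.842) and Il34 at -0.45 ± 0.23 (adjusted p = 0.250), and neither ligand of Csf1r passed the test. Of 16 tested genes of the CX3CR1, CSF1R and TGF-β pathways, 12 were higher and 4 lower in value (median 0.19, or -0.01 without vehicle 1 and 3). edgeR called 0 of them, with 6 at an unadjusted p under 0.05 and 3 called by DESeq2. The most abundant were Tgfbr2 (0.56), Tgfbr1 (0.35) and Adam10 (0.26).

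Among 12 transcription factors of microglia, apart from Sall1, 0 passed with edgeR, and 1 was lower at an unadjusted p under 0.05 and in DESeq2. That gene was Mef2c, also used by neurons, at 140, 137, 507 and 107 CPM in vehicle and 66.9, 66.3, 75.1 and 79.0 CPM in HPβCD libraries (log2 fold change -1.63 ± 0.49, edgeR adjusted p = 0.0897). Its groups did not overlap, and vehicle 3 was far above the rest. Mef2a (0.00) overlapped, and the median of the list was 0.16 (-0.02 without vehicle 1 and 3).

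Partners of P2ry12 and P2ry13 in nucleotide signalling were mostly higher in value, 11 of 13 tested, with a median of 0.37. There were 5 higher and 1 lower at an unadjusted p under 0.05, and DESeq2 called 4, all higher. Panx1, the channel through which cells release ATP, rose by 0.91 ± 0.17 (edgeR adjusted p = 0.0483), from 19.5 to 22.9 CPM in vehicle to 29.97 to 46.7 CPM in HPβCD libraries. P2rx4, an ATP-gated channel (0.64 ± 0.16, adjusted p = 0.0686), and Gnai2, the G protein subunit to which P2ry12 couples (0.39 ± 0.16, adjusted p = 0.160), did not pass. Entpd1, which breaks down ATP and ADP, stood at 0.27 ± 0.25 (adjusted p = 0.514).

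Genes that microglia are known to raise in disease were mostly higher in value, unlike P2ry12 and Cx3cr1. Of 26 tested, 23 were higher in value, 14 were higher and 1 lower at an unadjusted p under 0.05, and DESeq2 called 13, all higher. In CPM, 12 of the 26 were higher in every HPβCD library than in any vehicle library, beside 8.77% of all genes. Only Gpnmb passed with edgeR, a rise of 1.38 ± 0.28 (adjusted p = 0.0483), at 2941, 4616, 3559 and 5463 CPM in vehicle and 10070, 10010, 14580 and 8457 CPM in HPβCD libraries. Lyz2 (0.93) and Ctsd (0.98), the most abundant, did not pass. The median of the list was 0.66, and 0.46 without vehicle 1 and 3, against -0.23 and -0.32 for the 9 members. Foamy and infiltrating macrophages also use many of these genes, so the list does not mark microglia alone.

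**Figure D5:**
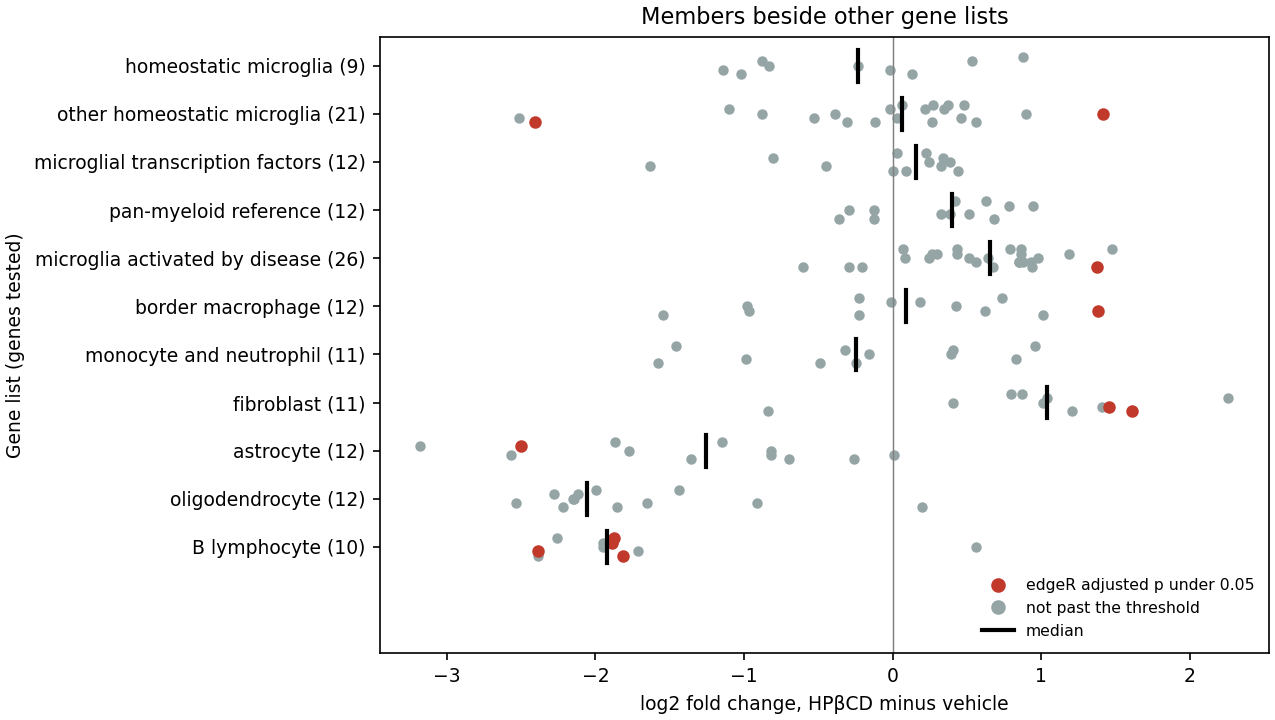
Log2 fold change, HPβCD minus vehicle, of each tested gene of 11 lists, with a black bar at each median and red points for genes that passed the edgeR test. None of the 9 homeostatic microglia genes is red, their median is -0.23, and the disease-activated list (median 0.66) and the oligodendrocyte list (median -2.06) lie on either side.

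The genes whose pattern over the 8 libraries was most like the mean centred level of the 9 members were sought among 10967 genes. These had a mean level of at least 5 CPM, and genes without a proper name were left out. The most alike were Dmac1 (Pearson r = 0.998), Fxyd1 (0.958), Tppp3 (0.957), Gfap (0.957) and Padi2 (0.953). The correlation takes no account of the size of the differences: Dmac1 ran only from 13.1 to 17.6 CPM (log2 fold change -0.15 ± 0.15). The mean profile of the members was highest in vehicle 1 (0.48), HPβCD 3 (0.36) and vehicle 4 (0.33) and lowest in HPβCD 2 (-0.38) and HPβCD 1 (-0.35) on the log2 scale. Gfap, the astrocyte filament gene, measured 1448, 484, 296 and 1064 CPM in vehicle and 112, 117, 905 and 348 CPM in HPβCD libraries. It was thus high in the same libraries as the members' mean, and its groups overlapped (log2 fold change -1.15 ± 0.80, edgeR adjusted p = 0.395).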

How the data were processed

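Gene expression was measured by bulk RNA-Seq in infarcts of 8 mice. Per the labels, the authors made strand-specific poly(A) libraries, trimmed reads with Trimmomatic 0.32, aligned them to GRCm38 with STAR 2.5.2b and counted them with HTSeq. Each table the authors deposited holds raw counts, not normalized. The strand setting and annotation release were not given in the sources used here. Lines for reads in no gene (26.6% to 36.6% of a table) were left out. Groups came from the labels, which give no batch. No 2 libraries were alike within counting noise, so each was taken as 1 animal.

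Differential expression was tested with edgeR 4.0.16 (R 4.3.3; TMM, filterByExpr, robust quasi-likelihood F test, no covariate), with Benjamini-Hochberg adjustment over 14736 genes and a threshold of 0.05. SEs follow from each log2 fold change and the square root of F. DESeq2 1.42.0, which the study used, and limma-voom (limma 3.58.1) were alternatives, besides other scalings, no filter, thinning, the animal number as a block, and left-out libraries. The procedure was tested on simulated data. Log2 CPM used a prior count of 2, and a list's level in a library is the mean of log2 CPM centred per gene. Correlations are descriptions without tests. Coordinates are from GENCODE M21 (GRCm38) and sequences from RefSeq (GRCm38.p6).

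All 9 members are reported. From each other list the 3 tested genes with the highest mean CPM and any called gene (at most 5) could be named, with Cx3cl1, Csf1, Il34 and the 5 genes most like the members' mean. Gad2 and Neu4 were added after their values were seen. Some genes that the rule would name are not reported here. The members and lists were chosen with earlier results of these data known.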

Additional observations from a re-analysis of the deposited data

Results flagged for a closer look

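In 4 of 38 sets of 4 values, a single library lay apart from the other 3 by Dixon's test, where chance gives about 1.9. Tmem119 in HPβCD 4 had a log2 CPM of 4.86, and the other HPβCD libraries had 5.69 to 5.79. Fcrls in HPβCD 3 stood at 6.57 against 5.30 to 5.37 in the rest of its group. The summed level of the 9 members in HPβCD 3 was 1280 CPM, beside 794 to 847 CPM. Csf1r in vehicle 3 stood at 8.60 against 8.87 to 8.92. Without HPβCD 3, the log2 fold change of Fcrls was -0.65 (edgeR adjusted p = 0.135), and without HPβCD 4 that of Tmem119 was 0.71 (edgeR adjusted p = 0.0986).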

How the results depend on the processing

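Over 16 alternatives, P2ry12, Cx3cr1, Sall1, Gpr34 and Fcrls stayed lower and Tmem119 and Olfml3 higher in value in all 16, and Csf1r kept its sign in 15 and P2ry13 in 8. The number of genes called by edgeR (287 of 14736) was 93 with limma-voom, 11 with library totals alone and 0 to 629 with 1 library left out. DESeq2, run without the filter on low counts, called 2911 of 26507 genes, and 2551 among the genes that edgeR tested. With DESeq2, 3 members were called, and with 1 library left out 0 to 2 (Cx3cr1 and Olfml3 without vehicle 3, Olfml3 without HPβCD 4). The median log2 fold change of the members ran from -0.65 (without HPβCD 3) to -0.10 with 1 library left out. Members whose groups did not overlap in CPM numbered 4 without vehicle 1 and 3 (beside 32.9% of all genes) and 2 to 5 with 1 library left out: 4 without vehicle 3 (beside 24.6%), and 5 without HPβCD 3 (beside 23.8%), with Cx3cr1, Sall1 and Fcrls added. Members lower relative to the myeloid genes numbered 6 with the 6-gene reference (beside 36.3% of all genes) and 3 without vehicle 1 and 3 (beside 15.1%). With 1 library left out they numbered 2 to 6, beside 12.3% to 27.6% of all genes. P2ry13 changed sign to 0.0052 with DESeq2, 0.0162 with no filter and 0.0312 without vehicle 1 and 3, and ran from -0.2238 to 0.0819 with 1 library left out. Csf1r ran from -0.0596 (without HPβCD 3) to 0.23. The cause of these changes was not tested.

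Libraries with the same animal number correlated at -0.26, 0.24, 0.33 and 0.10 in their deviations from the group means. Those with different numbers ran from -0.39 to 0.35, a range that holds the same-numbered values. These few values cannot settle whether the animal number pairs the libraries. With the number as a replicate block, edgeR called 9 genes, all lower, and 0 members. Thinning to the smallest total, which changed mainly vehicle 2, left 280 genes called and does not show whether depth limited the calls. There were 4 animals a group.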
